A study of Bos taurus with 28 samples.

Results

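The cytosolic ribosomal protein genes were compared between livers of ketotic and healthy dairy cows. Members were the genes with a large subunit symbol (RPL or RPLP followed by a number) or a small subunit symbol (RPS followed by a number, RPSA and FAU), with the RPS6K kinases left out. The array named 58 such genes, 34 of the large and 24 of the small subunit, among 8073 genes with a probe of their own. Of these, 57 could be tested, 33 large and 24 small, among 6958 genes tested in all. RPL31 had values in 3 ketotic and 6 healthy cows and was not tested.

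Ketosis was brought on by feed restriction in 7 multiparous Holstein cows, which received 50% of their own earlier intake after calving until clinical signs appeared, or until day 14 at the latest. The start of the restriction is day 5 in the study's design text and day 4 in the sample labels. The controls were 7 multiparous Holstein cows kept healthy; all 14 cows were judged healthy on day 4 and then assigned to the groups at random. Liver total RNA of each cow was hybridised to 2 cDNA arrays with exchanged dyes, each against a common RNA standard from cattle tissues, so that n is 7 cows per group. The sources used here do not give the day of liver sampling, and the groups differ in feed intake as well as in ketosis, which cannot be told apart.

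A ribosome is built from a large subunit, which joins amino acids and releases the chain through a tunnel, and a small subunit, which reads the mRNA. Their proteins are made in near equal numbers from genes scattered over the genome. Most ribosomal protein mRNAs begin with a 5' terminal oligopyrimidine (TOP) motif, through which mTORC1, a kinase complex that responds to nutrients and insulin, controls their translation. In liver, where albumin and other plasma proteins are secreted in bulk, ribosomes hold most of the cell's RNA.

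Every value below is a log2 ratio of liver over the common standard, with each array's median at 0, averaged over both arrays of a cow. After the arrays with liver in Cy3 were turned, the hepatocyte markers had a positive median log2 ratio on 28 of 28 arrays, the lowest being 2.5 and the middle one 6.06, so liver was the numerator. A difference is ketotic minus healthy on this log2 scale. It is relative to the other genes on the array and does not measure RNA per cell. Over all 6958 genes the median difference was -0.18, and members are read against that shift. Fewer cells of a type and less RNA per cell cannot be told apart in whole liver.

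Some cows stood apart. The median correlation of healthy cow 7 with its own group was 0.434, against 0.900 to 0.917 for the other healthy cows. It was taken over the 10420 tested probes, with or without a gene name. Counts are therefore also given without healthy cow 7. Ketotic cow 5 had the highest share of spots without a usable ratio, 25.02%, and the widest spread of ratios. That share was 16.5% ± 4.49 in ketotic and 11.9% ± 2.80 in healthy cows (SD, n = 7 each), and the spread, a scaled median absolute deviation, was 1.40 ± 0.185 in ketotic and 1.12 ± 0.128 in healthy cows on the log2 scale. The part of either measure in the results below was not tested, apart from the fits given for them.

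Genes of both subunits fell in ketotic liver and none rose. Of the 57 members, 31 fell at a limma adjusted p under 0.05, or 54.4%, while 12.4% of all genes tested fell and 0.92% rose. At an unadjusted p under 0.05 limma called 38 members lower and 0 higher, or 66.7% lower, against 24.4% lower and 4.01% higher for all genes. Among large subunit genes 20 of 33 fell (60.6%), and among small subunit genes 11 of 24 (45.8%). The falls were of moderate size, between 1.38-fold for RPL34 and 2.14-fold for RPS3, and 3 genes (RPS3, FAU and RPL4) fell at least 2-fold. The median difference over the members was -0.60, or -0.42 relative to the median of all genes. It was -0.61 for the large and -0.60 for the small subunit. Differences were negative for 54 of the 57 members, against 67.2% of all genes, and 50 members lay below the all-gene median.

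**Figure D1:**
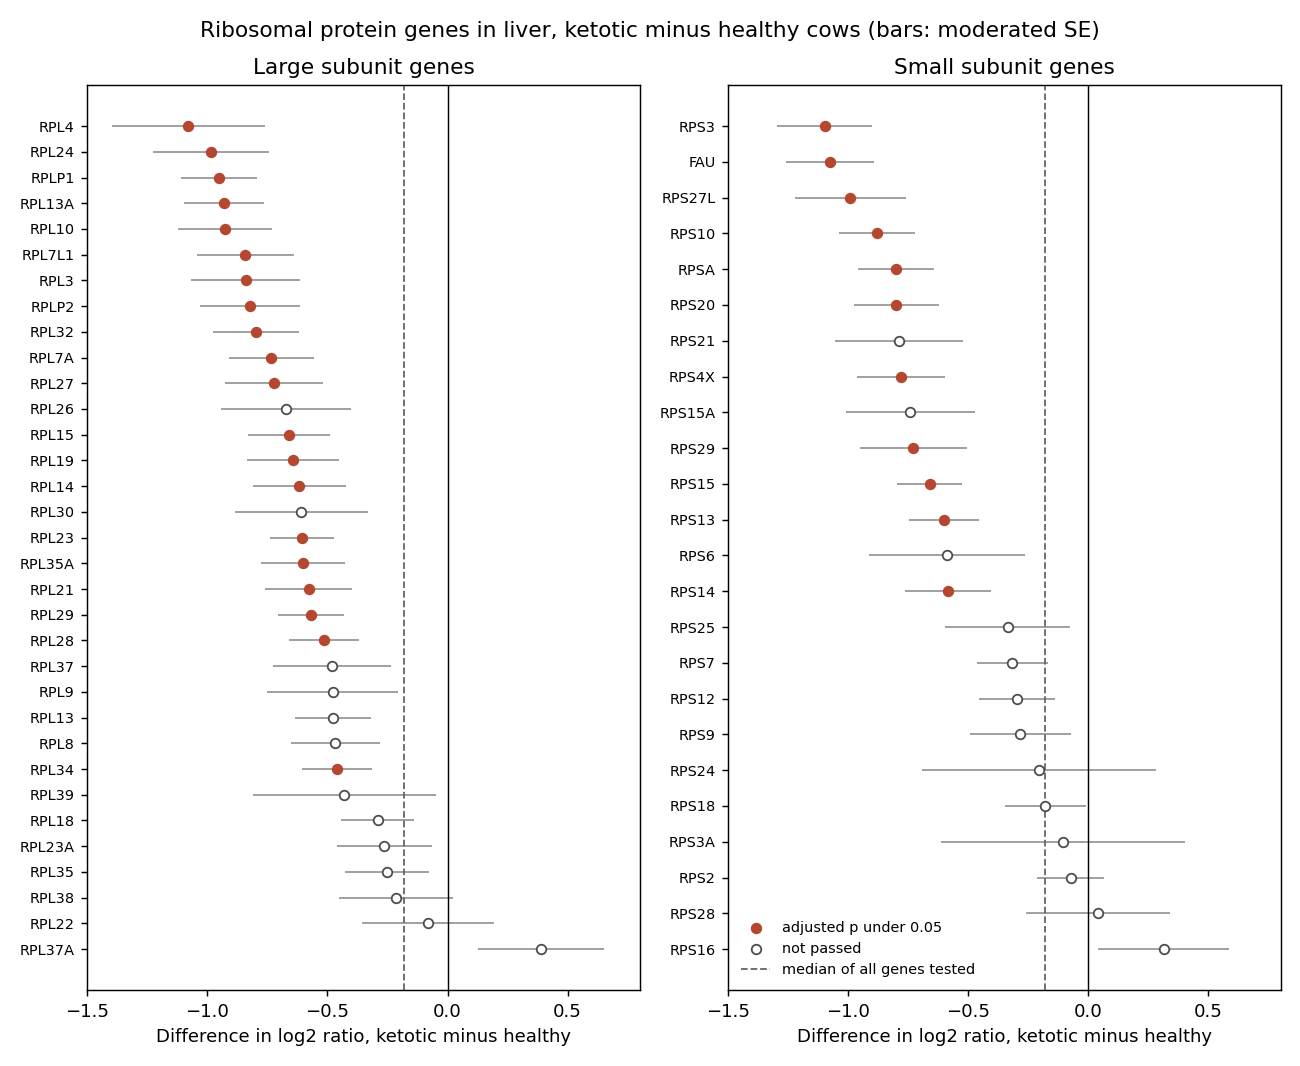
Difference in log2 ratio, ketotic minus healthy (x axis), for each of the 33 large and 24 small subunit genes tested, with limma's moderated standard error as the bar; filled points passed and the dashed line marks the median of all genes at -0.18. Nearly all points lie left of the dashed line, and RPL37A and RPS16 lie furthest to the right of 0 without passing.

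Among the large subunit genes, the smallest p belonged to RPLP1, an acidic protein of the stalk that recruits elongation factors. Its log2 ratio ran from -2.06 through a median of -1.38 to -1.19 in ketotic cows, against -0.92, -0.46 and -0.27 in healthy cows. It fell by 0.95 (SE 0.159, adjusted p = 0.00312), and the groups did not overlap. RPLP2, its partner in the stalk, ran from -2.61 (median -1.58) to -1.28 in ketotic cows, against -1.26 (median -0.90) to -0.27 in healthy cows. It fell by 0.82 (SE 0.207, adjusted p = 0.0188), again with every ketotic value below every healthy one.

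RPL13A, which in human cells also leaves the ribosome to repress inflammatory mRNAs, had log2 ratios from -2.93 (median -2.07) to -1.91 in ketotic cows, against -1.60 (median -1.23) to -1.02 in healthy cows, and fell by 0.93 (SE 0.165, adjusted p = 0.00383). RPL10, which joins the subunit late in its assembly near the site of peptide bond formation, had ratios from -1.56 (median -1.06) to -0.95 in ketotic cows, against -0.73 (median -0.38) to 0.72 in healthy cows. It fell by 0.93 (SE 0.197, adjusted p = 0.00901). In both genes the groups were fully apart, and the highest RPL10 value was that of healthy cow 7.

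RPL23, which in human cells also binds MDM2, had ratios from -1.5 (median -1.21) to -0.78 in ketotic cows, against -0.86 (median -0.54) to -0.46 in healthy cows, and fell by 0.61 (SE 0.134, adjusted p = 0.0104). Its groups overlapped through the lowest healthy value, that of healthy cow 7. RPL32, a core protein of the subunit, had ratios from -2.56 (median -1.76) to -1.34 in ketotic cows, against -1.08 (median -1.01) to -0.54 in healthy cows. It fell by 0.80 (SE 0.179, adjusted p = 0.0113), with no overlap. RPL29, also known as a heparin-binding protein, was the most even member within the ketotic group, from -1.41 (median -1.25) to -1.13, against -1.02 (median -0.76) to -0.21 in healthy cows, and fell by 0.57 (SE 0.137, adjusted p = 0.0153) without overlap.

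The other large subunit genes that fell were RPL7A, RPL7L1, RPL24, RPL15, RPL3, RPL27, RPL28, RPL35A, RPL4, RPL19, RPL14, RPL21 and RPL34, with adjusted p between 0.0156 and 0.04996. RPL4, whose loop lines the exit tunnel, had the largest difference of the subunit, -1.08 (SE 0.319), but also the widest spread among these genes: ketotic cow 6 was at -0.86 while the other ketotic cows lay at -1.96 or lower. RPL3, at the heart of the large subunit, had a difference of -0.84 (SE 0.228). RPL34 was the last gene to pass, with a difference of -0.46 (SE 0.147), and RPL13 the first that did not, with -0.48 (SE 0.157, adjusted p = 0.0555).

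Among the small subunit genes, FAU had the smallest p. FAU encodes the ribosomal protein eS30 fused to a ubiquitin-like protein, from which it is cut. Its log2 ratio ran from -2.72 (median -1.84) to -1.62 in ketotic cows, against -1.20 (median -1.0) to -0.47 in healthy cows. It fell 2.11-fold, by 1.08 (SE 0.184, adjusted p = 0.00336), with no overlap. RPS3, which lies where the mRNA enters, had ratios from -2.60 (median -2.05) to -1.83 in ketotic cows, against -1.39 (median -1.10) to -0.26 in healthy cows. It showed the largest difference of all members, -1.10 (SE 0.196, adjusted p = 0.00383), and its groups were fully apart.

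RPS10 and RPS20 encode proteins of the small subunit's head that in human cells are tagged with ubiquitin when ribosomes collide. RPS10 had log2 ratios from -2.22 (median -1.5) to -1.09 in ketotic cows, against -0.85 (median -0.65) to -0.52 in healthy cows, and fell by 0.88 (SE 0.158, adjusted p = 0.00383). RPS20 had ratios from -3.09 (median -2.34) to -2.08 in ketotic cows, against -2.15 (median -1.59) to -1.19 in healthy cows, and fell by 0.80 (SE 0.177, adjusted p = 0.0105). The RPS10 groups did not overlap; those of RPS20 did, through healthy cow 7 alone.

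RPSA, also known as the laminin receptor precursor, had ratios from -2.62 (median -2.0) to -1.68 in ketotic cows, against -1.61 (median -1.36) to -1.01 in healthy cows, and fell by 0.80 (SE 0.158, adjusted p = 0.00626). RPS15, needed for export of the young small subunit from the nucleus, had ratios from -2.20 (median -1.95) to -1.63 in ketotic cows, against -1.61 (median -1.19) to -0.99 in healthy cows. It fell by 0.66 (SE 0.135, adjusted p = 0.00746). Neither gene's groups overlapped, though for both the gap was narrow. RPS27L, RPS4X, RPS13, RPS29 and RPS14 also fell, with adjusted p between 0.0133 and 0.0425.

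**Figure D2:**
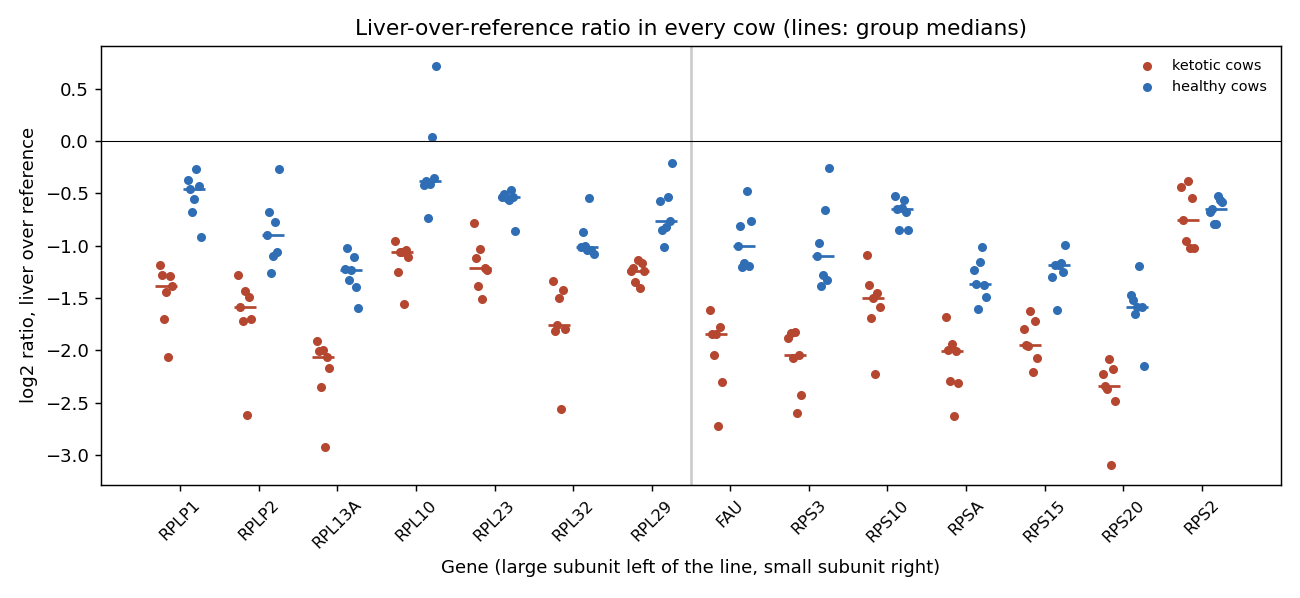
Log2 ratio of liver over the common standard (y axis) in each of the 7 ketotic (red, left) and 7 healthy cows (blue, right) for the 6 large and 6 small subunit genes with the smallest p, with RPLP2 and RPS2 beside them; lines are group medians. The ketotic points lie under the healthy ones for most of these genes, the RPS2 groups overlap, and the highest RPL10, RPLP2, RPL29, RPS3 and RPS15 points are those of healthy cow 7.

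In 13 of the 57 members, 7 large and 6 small, every ketotic value lay below every healthy value, which held for 5.39% of all genes. Besides those given above, the 13 include RPL19 and RPS13. Without healthy cow 7 this count was 31 of 57, 17 large and 14 small, against 8.59% of all genes. Of the 31 genes that fell, 30 had every measured ketotic cow below the healthy mean; RPL4 was the exception. They were called on these same values, so this count is not separate evidence, and the share over all genes was not counted.

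Members were also sorted by place in the ribosome, where each place holds few genes and differences between places were not tested. Over all members 54.4% fell, and over all genes 12.4%. Of the measured stalk genes 2 of 2 fell. Of the genes at the mRNA entry, RPS3 and FAU fell, whereas RPS2 had a difference of -0.074 (SE 0.140, adjusted p = 0.785). At the mRNA exit, RPS14 fell by 0.58 and RPS28 had a difference of 0.040. Of 8 genes listed for the tunnel exit, where the new chain leaves the large subunit, 2 fell: RPL19 by 0.64 and RPL24 by 0.98. RPL24 is better known for a bridge between the subunits than for the tunnel. The other members of that list, RPL26, RPL39, RPL23A, RPL35, RPL38 and RPL22, did not pass with all cows, and the list's median was -0.35 against -0.18 over all genes. Without healthy cow 7, 4 of the 8 fell, with RPL26 and RPL39 added. In that fit 71.9% of all members and 18.4% of all genes fell.

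Members include 2 paralogs of core ribosomal proteins, and both fell. RPS27L, a relative of RPS27 that p53 switches on in human cells, had log2 ratios from -2.62 (median -1.71) to -1.18 in ketotic cows, against -1.35 (median -0.52) to -0.24 in healthy cows, and fell by 0.99 (SE 0.231, adjusted p = 0.0133). RPL7L1, a relative of RPL7, had ratios from -1.82 (median -1.39) to -0.51 in 7 ketotic cows, against -0.79 (median -0.46) to -0.065 in 6 healthy cows. It fell by 0.84 (SE 0.202, adjusted p = 0.0162). Both genes' groups overlapped slightly. Without the paralogs, 29 of 55 members fell, 19 of 32 large and 10 of 23 small. Ribosomal protein genes have many near-identical processed copies in mammalian genomes, and a cDNA probe cannot tell such copies apart.

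The 26 members that did not pass were 13 of each subunit. Their differences reached -0.67 for RPL26 in the large subunit and -0.79 for RPS21 in the small subunit, and were positive for RPL37A (0.39, adjusted p = 0.354), RPS16 (0.31, adjusted p = 0.497) and RPS28. RPS28 had log2 ratios from -1.02 (median 0.12) to 0.52 in 5 ketotic cows, against -0.93 (median -0.19) to 0.52 in 7 healthy cows, so that the groups covered each other. Its standard error of 0.299 was wider than the median of 0.190 for the small subunit.

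Several of the genes with the largest p had 1 healthy cow far below the rest. RPS24 had ratios from -2.75 (median -1.98) to -1.48 in ketotic cows, against -4.84 (median -1.31) to -1.10 in healthy cows, a difference of -0.21 (SE 0.486, adjusted p = 0.831). RPS3A had ratios from -2.33 (median -1.5) to -1.20 in ketotic cows, against -4.73 (median -1.0) to -0.65 in healthy cows, a difference of -0.11 (SE 0.506, adjusted p = 0.919). In both, the median of the ketotic cows was below that of the healthy cows while healthy cow 7 lay below every other cow.

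RPL39, a small protein in the tunnel wall, showed the same arrangement, with ratios from -2.56 (median -2.19) to -1.88 in ketotic cows, against -4.19 (median -1.39) to -1.10 in healthy cows. Its difference was -0.43 (SE 0.380, adjusted p = 0.50). RPL22, which mice can lose with a defect mainly in T cells, had ratios from -1.47 (median -0.83) to -0.026 in 6 ketotic cows, against -1.96 (median -0.56) to -0.40 in healthy cows, a difference of -0.081 (adjusted p = 0.888). RPL38, known from patterning defects of the mouse skeleton, had ratios from -1.02 (median -0.52) to -0.13 in ketotic cows, against -0.90 (median -0.45) to 0.95 in healthy cows, a difference of -0.22 (adjusted p = 0.60). The groups overlapped in all 3 genes, and healthy cow 7 was the highest cow for RPL38 and the lowest for the other two.

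The count moved with healthy cow 7. Without it 41 of 57 members fell, 24 large and 17 small, against 18.4% of all genes. Each of the 31 genes that fell with all cows also fell without it. The 10 added were RPL9, RPL26, RPL30 and RPL39 in the large subunit and RPS3A, RPS6, RPS15A, RPS21, RPS24 and RPS25 in the small subunit. RPS6, the main ribosomal target of the S6 kinases, had a difference of -0.59 (adjusted p = 0.251) with all cows and of -0.91 (adjusted p = 0.00333) without healthy cow 7. RPL39 moved to -0.83 (adjusted p = 0.00175), RPS24 to -0.72 (adjusted p = 0.0171) and RPS3A to -0.65 (adjusted p = 0.0165). With or without that cow, 16 members did not pass, among them RPS2, RPS7, RPS9, RPS12, RPS18, RPL8, RPL13, RPL18 and RPL35.

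Healthy cow 7 was set against the other healthy cows gene by gene, for the 55 members measured in it. It lay below all of them for 30 members and above all of them for 14, while over all genes it lay below for 35.3% and above for 34.6%. The lowest were RPS24 and RPS3A, at -4.84 and -4.73, against lowest values of -1.53 and -1.10 in the other healthy cows. RPS6 was at -2.94 in this cow, with the other healthy cows at -0.89 or higher. The highest was RPS21, at 1.08, with the other healthy cows at -0.49 or lower. Both arrays of the cow showed these gaps: RPS3A was lower than the median of the other healthy cows by a log2 difference of -2.87 with liver in Cy3 and -4.71 with liver in Cy5, and RPS21 was higher by 1.98 and 1.5.

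**Figure D3:**
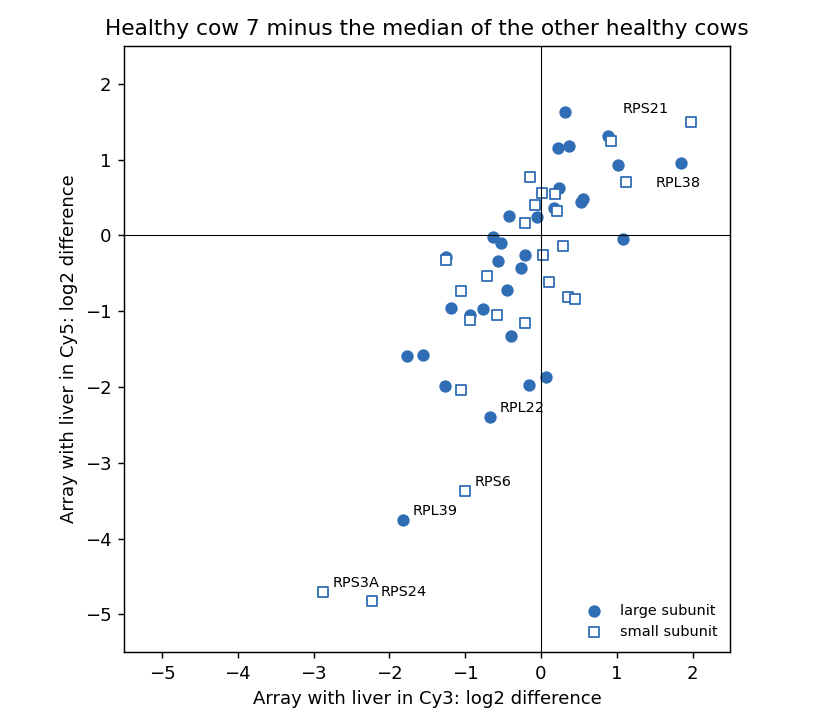
Log2 ratio of healthy cow 7 minus the median of the other healthy cows for each member, on the array with liver in Cy3 (x axis) and the array with liver in Cy5 (y axis); filled circles are large and open squares small subunit genes. RPS3A, RPS24, RPL39 and RPS6 lie far below 0 on both arrays, and RPS21 and RPL38 lie above 0 on both.

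Large and small subunit genes were close to each other in every cow. For a per-cow value, each gene was centred over the 14 cows and the median over the genes of a subunit was taken. The large subunit value was -0.30 ± 0.29 in ketotic and 0.31 ± 0.14 in healthy cows (SD, n = 7 each), and the small subunit value was -0.27 ± 0.32 in ketotic and 0.33 ± 0.14 in healthy cows. Ketotic cows ran from -0.85 to -0.0003 for the large subunit, against 0.076 to 0.50 for healthy cows, so the groups did not overlap. They did not overlap for the small subunit either, with -0.90 to 0.0076 in ketotic and 0.11 to 0.53 in healthy cows. The same held for all genes together, treated the same way, which ran from -0.31 to 0.011 in ketotic and from 0.066 to 0.14 in healthy cows, so the separation is not particular to the ribosomal genes. With that all-gene value taken off, the members ran from -0.56 to -0.011 in ketotic and from -0.0078 to 0.36 in healthy cows, and a gap of under 0.01 parted the groups. Healthy cow 7 was the lowest healthy cow here; the others lay at 0.13 or higher.

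The large minus small value of a cow was -0.023 ± 0.037 in ketotic and -0.016 ± 0.043 in healthy cows (SD, n = 7 each), and these differ by -0.0072, less than the spread within either group. It was -0.058 with every array scaled to one spread and 0.041 over the genes measured in all cows. All genes together had -0.10 ± 0.11 in ketotic and 0.10 ± 0.030 in healthy cows. No p is given for these summaries, since they are scores over chosen genes.

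**Figure D4:**
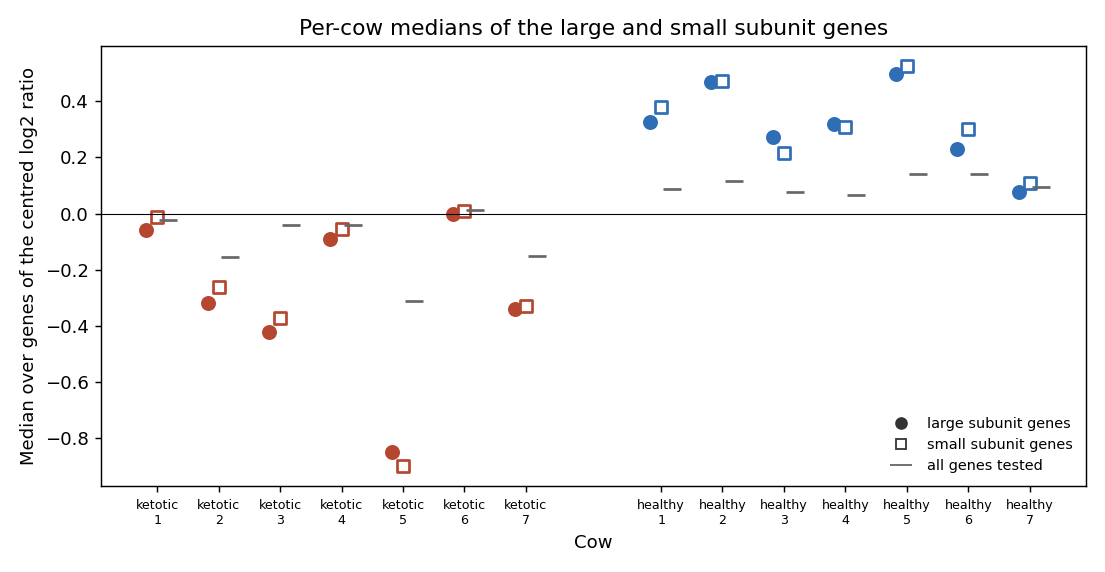
Median over genes of the log2 ratio centred per gene (y axis) in each cow (x axis, ketotic left, healthy right) for large subunit genes (filled circles), small subunit genes (open squares) and all genes tested (grey bars). The circle and the square of a cow lie close together, ketotic cow 5 is lowest at -0.85 and -0.90, and ketotic cows 1, 4 and 6 lie close to 0.

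The per-cow value over all members had an SD of 0.30 among ketotic and 0.14 among healthy cows. Ketotic cow 5 was the lowest ketotic cow for 49 of the 57 members. The share of all genes that were lowest in this cow was not counted. Over all genes together it was also the lowest cow, at -0.31, with ketotic cow 2 next at -0.16. Its per-cow value over all members was -0.87. Ketotic cow 6 was at -0.0003, ketotic cow 1 at -0.059 and ketotic cow 4 at -0.063. Ketotic cows 2, 3 and 7 lay between -0.38 and -0.28. Among the healthy cows, healthy cow 5 was highest at 0.50 and healthy cow 7 lowest at 0.087. Without ketotic cow 5, 23 of 56 members fell, against 9.85% of all genes, and the median difference was -0.51.

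Members varied together from cow to cow within the groups. With the group means removed, the median correlation over pairs of large subunit genes was 0.40, over pairs of small subunit genes 0.45 and between large and small genes 0.46, for the 52 members measured in all 14 cows. Over all genes measured in every cow it was 0.056. In the 7 ketotic cows alone the 3 medians were 0.77, 0.80 and 0.77, against 0.12 for all genes, and in the 7 healthy cows 0.25, 0.16 and 0.22, against 0.0053. Without ketotic cow 5 the 3 medians over both groups were 0.29, 0.24 and 0.32, against 0.024 for all genes, and without healthy cow 7 they were 0.58, 0.60 and 0.61, against 0.070. In the 6 ketotic cows other than ketotic cow 5 they were 0.55, 0.59 and 0.55, against 0.050. Leaving out these cows was chosen after the data were seen. These are descriptions, since genes on an array share its RNA and its normalisation. Across the 14 cows, again with the group means removed, RPL32 and RPL19 followed the median of the other members most closely, at 0.96 and 0.95. RPL37A went against that median at -0.33.

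All 57 members had a healthy mean ratio below 0, lower in liver than in the multi-tissue standard relative to the array's middle probe. The median of these means was -1.48 in ketotic and -0.86 in healthy cows, against -0.27 in ketotic and -0.095 in healthy cows for all genes. The lowest healthy mean was that of RPS4X at -1.81 and the highest that of RPS14 at -0.021. In ketotic cows 55 of 57 were below 0. Of the other 3258 genes with a healthy mean in the members' range, 15.6% fell and their median difference was -0.26. These ratios compare liver with the standard for 1 gene at a time and do not order the genes by level.

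The direction of the members' median was the same in both dye orientations, while its size and the number of calls differed. With liver in Cy3 alone, 28 of 57 members fell, against 8.73% of all genes, and the median difference was -0.74, or -0.58 relative to all genes. With liver in Cy5 alone, 0 of 58 fell by limma, against 0.144% of all genes, and 25 were lower at an unadjusted p under 0.05, or 43.1%, against 15.04% of all genes. Of these differences 51 of 58 were negative, and the median was -0.43, against -0.15 for all genes, or -0.28 relative to them. All 31 genes that fell with both dyes had negative differences in either orientation alone, from -1.13 for FAU to -0.22 for RPL35A with liver in Cy5. These genes were chosen on the mean of both orientations, so their signs are not separate evidence. The smallest adjusted p with liver in Cy5 was 0.0570, for FAU.

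The counts also moved with the scaling of the arrays and with a covariate. When every array was scaled to the same spread, 6 of 57 members fell (RPLP1, RPL10, RPL7L1, FAU, RPS3 and RPS10), against 7.4% of all genes, and the median difference was -0.34, against -0.15 for all genes. With a cow's share of empty spots added as covariate, 5 members fell, against 2.3% of all genes, with a median of -0.50. With arrays centred on the tested probes that carry 1 gene symbol, the all-gene median was -0.0043, and 13 of 57 members fell, against 4.8% of all genes. Centring takes 1 value off every gene of an array, so it can hardly change the members' median relative to the all-gene median. That relative median was -0.42 under every centring and -0.43 with values as deposited. It was -0.23 with quantile normalisation and -0.19 with one spread, and it ran from -0.66 to -0.19 over all 37 settings. The medians of both subunits were negative under each of these settings.

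**Figure D5:**
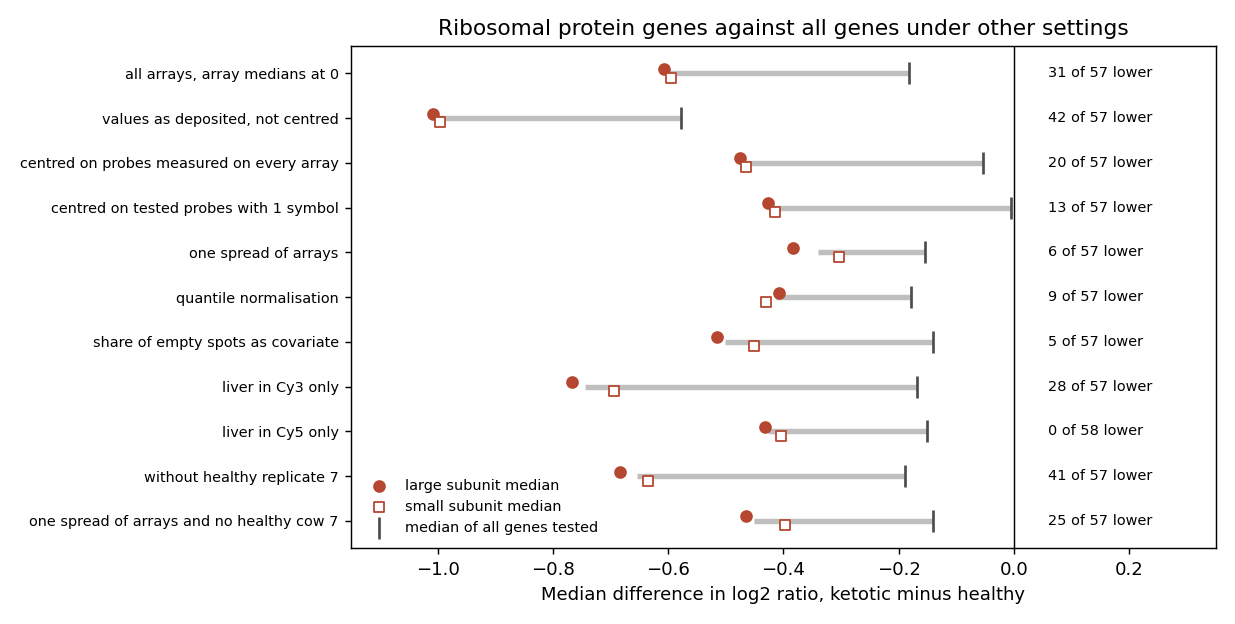
Median difference, ketotic minus healthy (x axis), of large (filled circles) and small subunit genes (open squares) and of all genes tested (vertical ticks) under 11 settings, with the number of members that fell at the right. Both subunits lie left of the tick in each of these settings, and the number of members that fell runs from 0 with liver in Cy5 to 42 with values as deposited. Of all genes, 0.144% fell with liver in Cy5 and 35.4% with values as deposited.

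Other genes of translation were counted in the same fit. Of 16 measured mRNAs of the TOP class that do not encode ribosomal proteins, 8 fell and none rose (50%), while 12.4% of all genes fell. At an unadjusted p under 0.05 limma called 0 of them higher. Their median was -0.56 against -0.18 over all genes. CCT7, a subunit of the chaperonin that folds actin and tubulin, fell by 1.10 (SE 0.184, adjusted p = 0.00308). RACK1, a scaffold protein bound to the small subunit, fell by 0.91 (SE 0.156, adjusted p = 0.00336), and TPT1, the translationally controlled tumour protein, by 0.90 (SE 0.202, adjusted p = 0.0120). EEF2 and EEF1B2 of elongation, EIF3H and EIF3L of initiation and BTF3, which binds new chains, fell too. Of the 16, 3 fell with arrays scaled to one spread (CCT7, RACK1 and TPT1), 2 with empty spots as covariate and 0 with liver in Cy5. Of all genes 7.4%, 2.3% and 0.144% fell under these settings.

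Of 21 other initiation factors 6 fell and 1 rose, with a median of -0.44, while 12.4% of all genes fell, 0.92% rose and their median was -0.18. With 1 cow left out 1 to 8 fell, the 1 without healthy cow 3, against 8.92% to 18.4% of all genes. The number was 1 with arrays scaled to one spread (7.4% of all genes). It was 0 with empty spots as covariate (2.3%) or with liver in Cy5 (0.144%). EIF1B fell by 0.67 (adjusted p = 0.0133), EIF4H, a helper of the eIF4A helicase, by 0.55 (adjusted p = 0.0266) and EIF3D, the cap-binding subunit of eIF3, by 0.56 (adjusted p = 0.0347). EIF2B5, the catalytic subunit of the factor that reloads eIF2 with GTP, rose by 0.51 (adjusted p = 0.0365). It was chosen for mention after its value was seen, as the only gene of translation that rose in these lists, and it did not pass when ketotic cow 2, 3, 4 or 5 or healthy cow 3, 5 or 6 was left out.

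Ribosome assembly factors trim and fold ribosomal RNA and fit the proteins to it. Of 79 measured 3 fell and none rose (3.80%; 1 higher at an unadjusted p under 0.05), below the share of all genes, and their median of -0.20 was close to the -0.18 of all genes. NOP10, a part of the particles that modify ribosomal RNA, fell by 0.77 (adjusted p = 0.0175), the assembly factor NOP16 by 1.42 (adjusted p = 0.0233) and WDR74 by 0.89 (adjusted p = 0.0413). The difference between the lists was not tested. A further list held genes of mTORC1 and S6 kinase signalling. It also held genes outside that pathway: RPS6KA1, RPS6KA2, RPS6KA3, EIF2AK2, EIF2AK3, EIF2AK4, GCN1, PPP1R15B, MYC and MAX. Of its 33 genes 5 fell and none rose (15.2%, with 0 higher at an unadjusted p under 0.05). This was near the 12.4% of all genes, and the list's median was -0.29. RRAGA, a small GTPase that brings mTORC1 to the lysosome when amino acids are present, fell by 0.94 (adjusted p = 0.00250), RHEB, the GTPase that switches mTORC1 on, by 0.57 (adjusted p = 0.0178), and RPS6KA1, a kinase of the RSK family, by 0.83 (adjusted p = 0.0209).

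Markers of liver cell types moved as well, and their part in the members' values was not tested. Of 16 hepatocyte markers 3 rose: ALB, which encodes albumin, by 1.62 (adjusted p = 0.0228), APOA1 by 0.86 (adjusted p = 0.0208) and APOA4 by 1.30 (adjusted p = 0.0336). With arrays scaled to one spread the differences were -0.073 for ALB, -0.027 for APOA1 and 0.42 for APOA4, and none passed. TTR, which carries thyroid hormone, had a difference of 0.59 (adjusted p = 0.467). The list's median log2 ratio per cow ran from 5.45 to 6.90 in ketotic and from 3.09 to 7.28 in healthy cows, with healthy cow 7 lowest; the next healthy cow was at 5.24.

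Of 10 macrophage markers 4 fell and 0 rose, while 12.4% of all genes fell and 0.92% rose. CD74 fell by 0.88 (adjusted p = 0.00597), LAPTM5 by 0.96 (adjusted p = 0.00731), CTSS by 1.07 (adjusted p = 0.0182) and AIF1 by 1.27 (adjusted p = 0.0394). The markers that did not pass were C1QB (-0.80), C1QC (-0.23), FCER1G (-0.18), CD14 (-0.18), MARCO (-0.15) and C1QA (0.098). The list's median difference was -0.51. Its median log2 ratio per cow ran from 0.79 to 2.37 in ketotic and from 0.53 to 2.91 in healthy cows. Of 7 genes listed as lymphocyte markers GNLY (by 0.68, adjusted p = 0.0339) and PTPRC (by 0.93, adjusted p = 0.0363) fell, and CD79B rose by 0.85 (adjusted p = 0.0275). PTPRC is not limited to lymphocytes. The list's median difference was -0.20, against -0.18 over all genes. Its median log2 ratio per cow ran from -0.83 to 0.17 in ketotic and from 0.057 to 0.35 in healthy cows. Of 4 neutrophil markers MMP9 rose by 1.25 (adjusted p = 0.0477), while FCGR3A had a difference of -1.44 (adjusted p = 0.0747), S100A8 of -0.14 and LTF of -0.085, and the list's median was -0.11. Without healthy cow 7, 0 neutrophil markers rose and 1 fell, while 18.4% of all genes fell. Of 7 genes listed as bile duct markers only KRT8, which is not limited to bile duct cells, fell, by 0.998 (adjusted p = 0.00984). That is 14.3% of the list, near the 12.4% of all genes. None of 12 stellate cell and fibroblast, 7 endothelial or 2 red blood cell markers passed in the same limma fit, where an unadjusted p under 0.05 was reached by 2, 1 and 1 of them. The median differences of these lists were -0.84, -0.10 and 0.44. In the stellate cell and fibroblast list 8 differences were negative and 4 positive. Without healthy cow 7, 5 macrophage, 2 lymphocyte, 2 bile duct and 1 stellate cell and fibroblast marker fell, and 1 lymphocyte marker rose.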

How the data were processed

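Each deposited value is the log2 ratio of both dyes at a spot of one of 28 two-colour arrays, as the authors supplied it; the sources used here do not say how arrays were scanned or normalised. Array medians ran from -1.05 to 2.16. Values at a ceiling of 16.61 and empty cells were taken as missing. Arrays with liver in Cy3 were turned; the label fields of 1 ketotic array name Cy5 for both channels, and its title gave the dye. Adjacent spots were averaged to 13824 probes, arrays were centred on their probe median, and both arrays of a cow were averaged; cow numbers only name cows. Genes were named from the platform annotation (8645 probes with 1 symbol, 105 with several, 5074 with none), updated through ARS-UCD2.0 gene IDs, and their probes averaged. Not used were 7 probes that pair a member with another gene. Values in at least 5 cows per group were required. Groups were compared with limma 3.58.1 (lmFit and eBayes, R 4.3.3), two-sided, with Benjamini-Hochberg adjustment over all 6958 genes at 0.05; errors are moderated standard errors. The fit was tested on simulated data. Members, gene lists and the rule for named genes (the 6 smallest and 3 largest p per subunit, stalk, fusion and paralog genes, up to 3 passing genes per other list) were chosen with earlier results of these data known. FGB, fixed for the hepatocyte check, was not tested. Alternatives covered centring, spread, dyes, missing values, filters, covariate, weights, model, threshold and each cow left out. Figures used matplotlib 3.10.9. The number of cows per group limits the precision.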

Additional observations from a re-analysis of the deposited data

Results flagged for a closer look

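In each group of 7 cows, the values of the members described by cow, the per-cow subunit medians, the share of empty spots and the spread of ratios were examined for 1 cow at a distance from the rest. This was so in 13 of 52 sets of values. Chance alone gives about 1 in 20, but that rate does not apply here: members with the largest p were among those examined, 1 far cow widens a gene's error, and genes of 1 cow share its RNA and arrays. Of the 13, 6 belonged to healthy cow 7. Its log2 ratio lay far below the other healthy cows for RPS24 (-4.84, next -1.53), RPS3A (-4.73, next -1.10), RPL39 (-4.19, next -1.60), RPL22 (-1.96, next -0.61) and RPL23 (-0.86, next -0.56), and far above them for RPL38 (0.95, next -0.13).

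Ketotic cow 5 lay far below the other ketotic cows for RPS20 (-3.09, next -2.48), RPL13A (-2.93, next -2.35), RPLP2 (-2.61, next -1.72), RPL32 (-2.56, next -1.82) and RPS3A (-2.33, next -1.63), and for the small subunit median (-0.90, next -0.37). This cow also had the highest share of empty spots. Healthy cow 5 was far above the other healthy cows for RPL32 (-0.54, next -0.87).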

How the results depend on the processing

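Over 37 settings, 5 of them chosen after seeing the data, the number of members that fell ran from 0 to 42. The share of all genes that fell ran from 0.144% to 35.4%. No setting turned the sign of either subunit's median. The cause of the changes below was not tested. Values as deposited gave medians of -1.01 (large) and -0.995 (small). The members that fell numbered 20 (11 large) with arrays centred on probes measured on every array, against 7.09% of all genes. With tested probes 12 large members fell, against 7.73% of all genes. With tested probes of 1 symbol 13 members fell (6 large, 7 small), against 4.8%. The members' count was 6 (3 and 3, small median -0.30) with one spread, against 7.4% of all genes. It was 9 (5 and 4) with quantile normalisation, against 7.72%, and 5 (2 and 3) with empty spots as covariate, against 2.3%. At a threshold of 0.01 it was 8 (3 and 5), against 3.19%. It was 0 (0 and 0) with liver in Cy5, against 0.144%, and 1 (0 and 1) in Cy5 without healthy cow 7, against 2.5%. Leaving out 1 cow gave 21 to 41 members, 12 to 24 large and 9 to 17 small, against 8.92% to 18.4% of all genes.

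The large minus small value, -0.0072 with all cows, was -0.058 with one spread, -0.052 with one spread and no healthy cow 7, and 0.041 for genes measured in all cows; it ran from -0.012 to 0.043 with 1 cow left out. Of 769 values of the 21 members described by cow, 664 kept direction and side of the threshold, 69 lost the call, 8 gained it and 28 changed sign. Centred on probes measured on every array, on tested probes and on those with 1 symbol, RPL22 was at 0.021, 0.0074 and 0.074 and RPS3A at 0.026, 0.0037 and 0.075. With one spread RPL39 was at 0.070, RPL22 at 0.12, RPS24 at 0.31 and RPS3A at 0.34; with quantile normalisation RPL22 was at 0.090, RPS24 at 0.21 and RPS3A at 0.26; in Cy5 RPL22 was at 0.16, RPS24 at 0.19, RPS3A at 0.37 and RPS28 at -0.023. RPL38 was at 0.048 with array weights and, without healthy cow 7, at 0.10 with one spread and 0.083 in Cy5. RPS28 was at -0.30 as deposited and -0.16 in Cy5 without healthy cow 7. With 1 cow left out, RPS3A ran from -0.65 to 0.030, RPL22 from -0.29 to 0.054 and RPS28 from -0.098 to 0.15.

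No paired analysis was possible because the cows' numbers only name them. The count of TOP mRNAs that fell ran from 0 to 14 of 16 over the settings, and of initiation factors from 0 to 14 of 21. It ran from 0 to 23 of 79 for assembly factors and from 0 to 17 of 33 for the mTORC1 and S6 kinase list. Each highest count came with values as deposited, where 35.4% of all genes fell. With liver in Cy5, where 0.144% of all genes fell, each count was 0. Dim spots could not be filtered, since intensities were not used here.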
